A study of Mus musculus with 20 samples.

Results

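Thapsigargin was given to activated mouse CD8 T cells, and its effect on the RNA of every gene was measured in 4 of the 20 libraries of the series. The cells were OT-I/Cas9 CD8 T cells: OT-I cells carry a T cell receptor for a peptide of ovalbumin, and Cas9 is the nuclease that a guide RNA directs. All 4 libraries came from cells with the control genotype (Ctrl), which were kept in IL-2, IL-7, IL-15 and puromycin and activated for 24 h on plates coated with 2.5 µg/mL anti-CD3, an antibody that triggers the T cell receptor. One pair of libraries received thapsigargin at 50 ng/mL and the other DMSO vehicle, for 8 h. Whether those 8 h fell within the 24 h of activation, and whether the 2 libraries of a group came from separate cultures, is not given in the sources used here. The p-values therefore measure only the spread between libraries of a group, which may be technical. For contrasts within T cells that spread was pooled over the 12 T cell libraries. Libraries were assigned by their titles, and all genes were considered. The same drug contrast in control cells without anti-CD3 (resting, 4 libraries), the same contrast in control B16F10 melanoma cells (4 libraries) and activated cells with a guide against Atp2a2 under DMSO serve below only to show where the response of activated cells differed.

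Thapsigargin blocks the SERCA pumps, which move calcium from the cytosol into the endoplasmic reticulum (ER). Emptied ER stores disturb protein folding and set off the unfolded protein response, whose PERK branch favours translation of ATF4, whose IRE1 branch splices Xbp1 mRNA and whose ATF6 branch raises ER chaperones. In T cells, store emptying also opens calcium channels of the plasma membrane, and cytosolic calcium activates calcineurin and the NFAT factors that act on cytokine genes. T cell receptor ligation uses this same calcium route.

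The vehicle libraries held 17462770 and 13521582 counts and the thapsigargin libraries 11577923 and 12877673, and the series ran from 9985311 to 17462770. Levels are in CPM, which scale each count to the library's size and cannot tell fewer cells of a type from less RNA per cell. CD8 T cell markers were present: 7 of 8 were higher under the drug, Lck was called lower only with DESeq2's size factors or with no filter, and Cd8a (Cd8 alpha chain) went from 617 and 634 CPM to 949 and 959 CPM. Marker sums here are per unscaled library size. Summed markers of CD4 and regulatory T cells were 43.3 and 43.0 CPM with vehicle and 180 and 161 CPM with thapsigargin, nearly all from Zbtb7b and Cd40lg, while Cd4 stayed at or below 0.984 CPM in all 4 libraries. Summed B cell markers lay between 3.55 and 4.51 CPM with Ms4a1 and Blk at 0, and myeloid markers between 17.1 and 25.7 CPM with Lyz2, Mpo, S100a8 and S100a9 at 0. NK markers summed to at most 1.09 CPM with Ncr1 and Klrb1c at 0, and erythroid markers to at most 0.0573 CPM. The part of these other cells in the results was not tested. Among the other T cell libraries, the 2 labelled resting with the Atp2a2 guide had 7364 and 7414 CPM of Ifng, near the 7386 and 7815 CPM of the activated Atp2a2 cells and far from the 9.01 and 9.79 CPM of resting controls. They entered no comparison here, only the common estimate of spread. Without them, 4381 genes were called higher and 4348 lower in activated cells.

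The drug moved much of the transcriptome of activated cells in both directions at once. Of 13432 genes tested, 4382 (32.6%) were higher and 4352 (32.4%) lower at an adjusted p below 0.05 in edgeR's quasi-likelihood test, 65% in all, and the median log2 change of all genes was 0.008. At least 2-fold changes were fewer, with 1113 genes (8.29%) higher and 1193 (8.88%) lower. The libraries of the 2 groups did not overlap for 10930 genes (81.4%). Libraries of a group differed little beyond counting noise, with a common coefficient of variation of 2.8% for that part, fitted over the 12 T cell libraries. Small changes therefore passed the test, so sizes are given throughout.

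**Figure D1:**
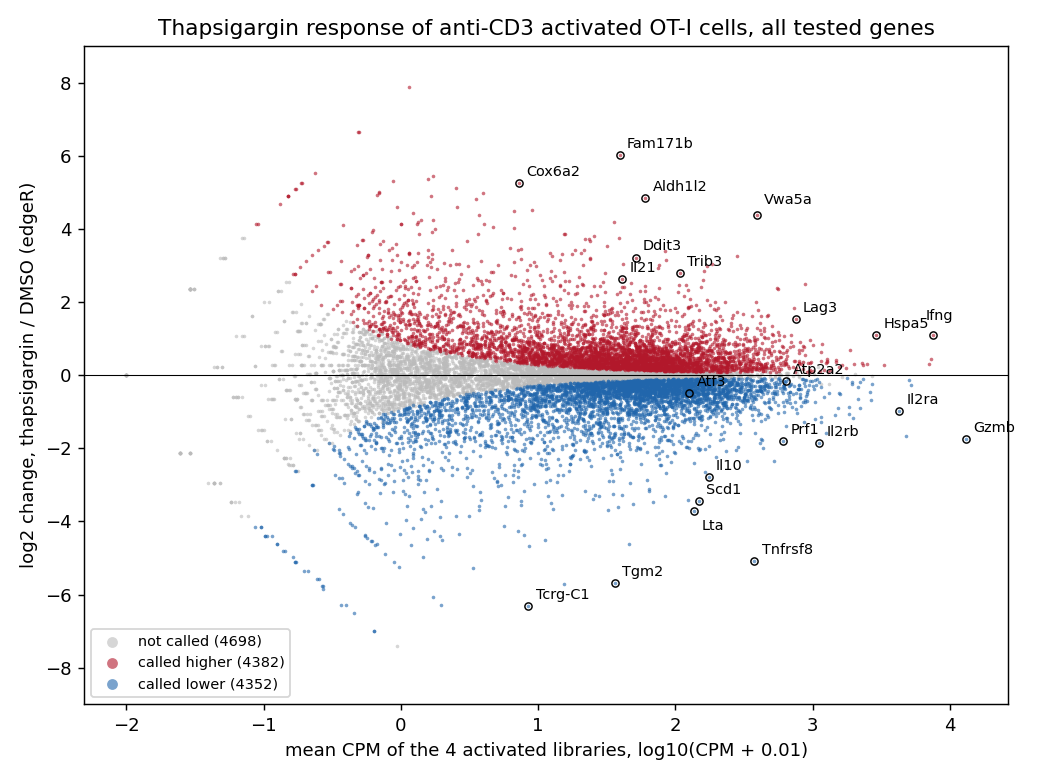
Each point is 1 of the 13432 genes tested. The horizontal axis is the log10 of the mean CPM over the 4 activated libraries (plus 0.01) and the vertical axis the log2 change with thapsigargin over vehicle; colours mark the 4382 genes called higher, the 4352 called lower and the 4698 not called, which lie around a median of 0.008.

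Fam171b, a membrane protein gene, had the largest rise among genes with at least 10 CPM in the higher group, from 1.34 and 0.984 CPM to 74.8 and 79.4 CPM (log2 change 6.01 ± 0.13, SE). Vwa5a, at chr9:38718268-38743337 (GRCm38), rose from 35.2 and 36.4 CPM to 737 and 753 CPM, 20.8-fold (adjusted p = 1.4e-57, edgeR). Aldh1l2, a mitochondrial folate enzyme, rose 28.5-fold from 4.02 and 4.16 CPM to 111 and 123 CPM. Groups without overlap were a condition for entering this ranking. Cox6a2 (5.24), Bdh2 (4.50), Grb10 (4.49), Angptl6 (4.19), Cd33 (4.03), Abcb4 (3.86), Slc13a3 (3.79), Lhfpl2 (3.75) and Avil (3.73) completed the 12 largest rises, given as log2 changes.

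The 12 largest falls held genes of several kinds. Tnfrsf8, which encodes the activation receptor CD30 and lies at chr4:145267137-145315164 (GRCm38), fell from 726 and 737 CPM to 20.1 and 22.6 CPM, 34.2-fold (log2 change -5.09 ± 0.053, SE; adjusted p = 1.4e-57, edgeR). Selp, the adhesion molecule P-selectin, went from 30.7 and 29.8 CPM to 0.682 and 0.459 CPM. Tgm2, a transglutaminase, went from 71.2 and 71.7 CPM to 1.70 and 1.07 CPM, and Epas1, the hypoxia factor HIF-2 alpha, from 87.8 and 88.7 CPM to 3.15 and 3.90 CPM. Here too, groups without overlap were a condition of the ranking. The gamma chain constant genes Tcrg-C1 (-6.32), Tcrg-C4 (-4.52) and Tcrg-C2 (-4.27) were among these falls, but they are close copies whose reads the counting may have split. Lta, the cytokine lymphotoxin alpha, fell 13.2-fold from 252 and 255 CPM to 19.8 and 18.5 CPM, and Fgr (-4.67), Esm1 (-4.36), Podnl1 (-4.12) and Tnfrsf11b (-3.68) completed the 12 largest falls on the log2 scale.

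The SERCA pump genes expressed at higher levels, Atp2a2 and Atp2a3, moved little. Atp2a2, which encodes SERCA2, went from 664 and 687 CPM to 596 and 604 CPM (log2 change -0.17 ± 0.034, SE; adjusted p = 1.3e-05, edgeR). Atp2a3, which encodes SERCA3, had 78.9 and 80.9 CPM with vehicle and 74.4 and 72.4 CPM with thapsigargin, a small difference whose call (adjusted p = 0.028, edgeR) was lost when any 1 of the 4 libraries was left out. Of 13 tested genes for pumps, release channels and ER calcium binding, 6 rose and 4 fell with a median log2 change of 0.13, and DESeq2 called 2 of them lower. Atp2a1, which encodes SERCA1, was at low levels, with 0.350 and 0.530 CPM with vehicle and 0.938 and 1.15 CPM with thapsigargin. It was the list's only member at least 2-fold higher (log2 change 1.27 ± 0.48, SE; adjusted p = 0.017, edgeR), a call lost under DESeq2, with no filter, and without the second thapsigargin or the first vehicle library. The largest fall was in Itpr3, an IP3-gated release channel, from 87.0 and 82.7 CPM to 35.3 and 33.0 CPM.

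Single members of calcium entry and its downstream route moved strongly. Over all tested genes 32.6% were called higher and 32.4% lower, and the shares for calcium entry and extrusion were no larger. Orai1, the pore of the store-operated channel, rose 3.3-fold from 27.3 and 26.3 CPM to 94.8 and 82.1 CPM, while of 16 genes of calcium entry and extrusion 5 rose, 4 fell and 7 were not called (median 0.08). Mcu, the pore of the mitochondrial uniporter, rose from 26.6 and 28.8 CPM to 66.5 and 71.4 CPM, and 7 of 11 genes of mitochondrial calcium uptake rose while 3 fell (median 0.32). Among 15 calcineurin and NFAT genes 8 rose and 5 fell (median 0.22). Rcan1, a calcineurin inhibitor and classic NFAT target, rose from 7.75 and 8.48 CPM to 21.4 and 21.4 CPM. Nfatc2, an NFAT factor itself, moved the other way by 4.37-fold, from 127 and 120.5 CPM to 28.5 and 28.2 CPM.

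The unfolded protein response was seen in the targets of its sensors more than in the sensors. Of 18 genes for sensors and eIF2alpha kinases and their substrates, 6 rose and 9 fell (median -0.12). Atf6, the chaperone-inducing sensor, rose 2.35-fold from 66.5 and 73.1 CPM to 164 and 164 CPM. Eif2ak3, which encodes PERK, fell from 134 and 130.1 CPM to 82.0 and 85.1 CPM (log2 change -0.66).

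Targets of ATF4 and CHOP rose almost as a whole: 38 of 42 tested members were called higher and 3 lower, 25 of them at least 2-fold higher and none at least 2-fold lower, with a median log2 change of 1.31 against 0.008 over all genes. Atf4 itself went from 382 and 393 CPM to 775 and 741 CPM (log2 change 0.97 ± 0.037, SE; adjusted p = 4e-30, edgeR). Ddit3, which encodes CHOP, rose 9.37-fold from 10.7 and 9.09 CPM to 96.2 and 88.9 CPM. The feedback genes rose too: Trib3, a pseudokinase that binds ATF4, went from 26.5 and 28.2 CPM to 196 and 179 CPM. Ppp1r15a, which encodes the GADD34 subunit that brings a phosphatase to eIF2alpha, rose 4.85-fold from 38.0 and 33.8 CPM to 176 and 172 CPM, and Chac1, which degrades glutathione, 5.46-fold from 7.87 and 8.03 CPM to 43.9 and 42.8 CPM.

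Genes of amino acid supply in the same list rose as well. Slc6a9, a glycine transporter, rose 10.5-fold from 13.3 and 16.1 CPM to 155 and 153 CPM. Slc7a11, the cystine importer, rose 9.83-fold from 3.09 and 4.54 CPM to 38.9 and 36.2 CPM. Asns, asparagine synthetase, rose from 224 and 225 CPM to 603 and 607 CPM. The 3 members that fell were Atf3 (147 and 149 CPM to 105 and 105 CPM), Ddit4 (289.8 and 272 CPM to 172 and 149 CPM) and Cdkn1a (955 and 969.9 CPM to 792 and 778 CPM), named for being the exceptions. Atf3 is a stress and activation factor, Ddit4 restrains mTORC1, and Cdkn1a encodes the cell cycle inhibitor p21.

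**Figure D2:**
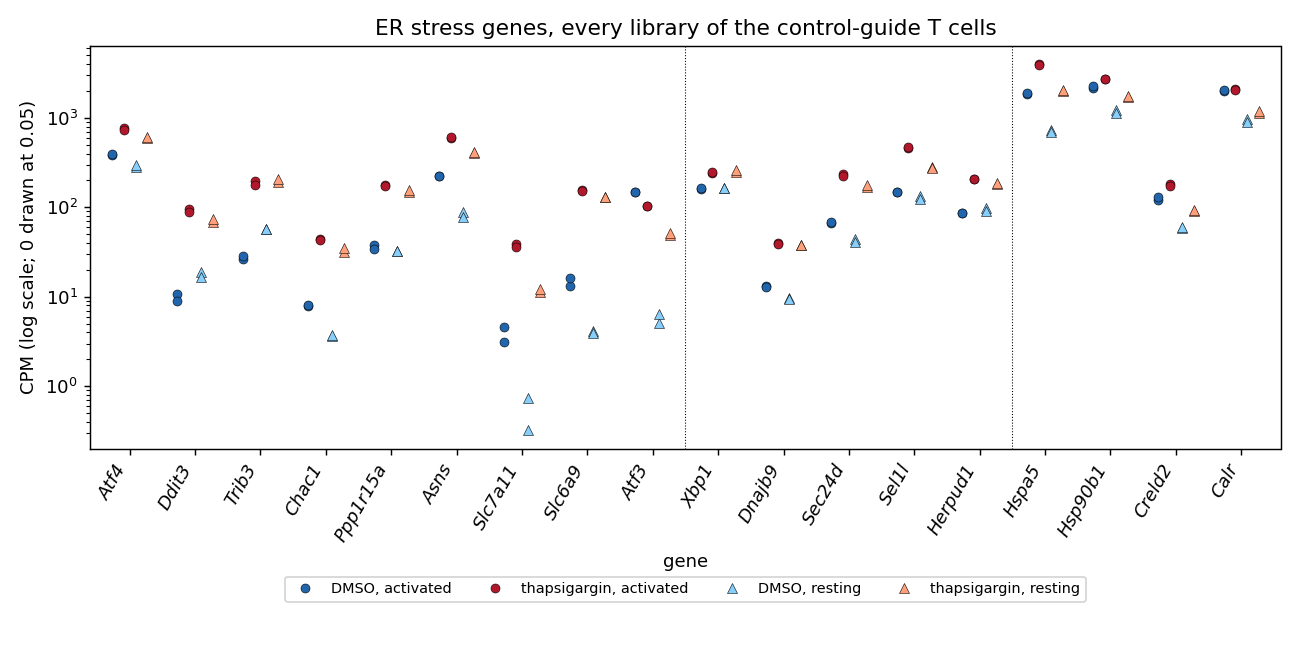
CPM (log axis) of 18 ER stress genes in every control T cell library; circles are activated cells, triangles resting cells, and colours mark vehicle and thapsigargin. Ddit3, at 10.7 and 9.09 CPM with vehicle and 96.2 and 88.9 CPM with thapsigargin in activated cells, shows the gap between groups, while Calr shows almost none.

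Genes listed as IRE1 and XBP1 targets rose broadly and by smaller factors. Of 37 tested targets 35 rose and 1 fell, with a median log2 change of 0.63, and 6 passed 2-fold. Xbp1 went from 162 and 166 CPM to 244 and 251 CPM; gene counts do not separate its spliced form. Dnajb9, an ER co-chaperone that restrains IRE1, rose 3.05-fold from 13.2 and 12.9 CPM to 40.0 and 39.4 CPM, and Sec24d, a coat protein of ER exit vesicles, 3.4-fold from 67.3 and 68.0 CPM to 234 and 227 CPM. Edem1, a lectin that hands misfolded glycoproteins to degradation, was the member that fell, from 582 and 582 CPM to 486 and 485 CPM.

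Genes of ER-associated degradation, which extracts misfolded proteins for the proteasome, rose in 23 of 28 members and fell in 1 (median 0.45). Sel1l, the scaffold of the HRD1 ligase, rose from 148 and 149 CPM to 465 and 476 CPM (log2 change 1.66). Herpud1, a partner of that complex, rose 2.4-fold from 85.8 and 86.7 CPM to 207 and 207 CPM. Ngly1, which strips sugars from extracted proteins, rose 2.53-fold to 153 and 152 CPM.

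ER chaperones and folding enzymes also rose in most members, 27 of 32 with 3 lower, but their median log2 change was 0.36 and only 5 reached 2-fold. Hspa5, which encodes BiP, the main ER chaperone and a reporter of the response, rose 2.12-fold from 1834 and 1897 CPM to 3983 and 3928 CPM (log2 change 1.08 ± 0.032, SE; adjusted p = 1.2e-35, edgeR). Hsp90b1, the ER form of HSP90, went from 2159.9 and 2271 CPM to 2718 and 2717 CPM (0.30). Calr, the calcium-binding chaperone calreticulin, had 2012 and 2037 CPM with vehicle and 2079.8 and 2038 CPM with thapsigargin, a difference no larger than that between libraries of a group (log2 change 0.02; adjusted p = 0.53, edgeR). The 3 members that fell were the oxidoreductases Tmx1 (-0.31) and Erp44 (-0.13) and the Toll-like receptor chaperone Cnpy3 (-0.61).

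The promoters of several of these chaperones hold the ER stress response element, the sequence through which ATF6 acts with NF-Y. The letters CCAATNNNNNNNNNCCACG were searched on both strands in the 250 bases before the RefSeq start of each gene (GRCm38.p6). They were found for 35 of 27025 genes (0.13%), for 18 of 9652 tested genes with a promoter in the table (0.186%) and for 7 of 26 genes of the chaperone list (26.9%). Among genes called at least 2-fold higher the letters were found for 2 of 803 (0.249%), and among those at least 2-fold lower for 0 of 806. The 7 genes are shown because their responses ranged from none to 2.12-fold; each line reads 5′ to 3′ along the strand that holds the match, with the fixed letters in capitals and the spacer in lower case.
Hspa5: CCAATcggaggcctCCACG
Dnajc3: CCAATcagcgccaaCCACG
Creld2: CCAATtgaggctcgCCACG
Pdia6: CCAATgaaaggcggCCACG
Hsp90b1, nearer site: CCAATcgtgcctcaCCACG
Hsp90b1, farther site: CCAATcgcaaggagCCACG
Canx: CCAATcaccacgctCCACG
Calr: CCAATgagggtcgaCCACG

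The sites lay at chr2:34772025-34772043 (Hspa5, + strand gene), chr14:118937827-118937845 (Dnajc3, +), chr15:88819520-88819538 (Creld2, +), chr12:17266491-17266509 (Pdia6, +), chr10:86705533-86705551 and chr10:86705638-86705656 (Hsp90b1, -), chr11:50325800-50325818 (Canx, -) and chr8:84847075-84847093 (Calr, -). The matches of Creld2 and Calr and the nearer match of Hsp90b1 read on the strand opposite the gene. The log2 changes of these genes were 1.08 for Hspa5, 0.63 for Dnajc3, 0.49 for Creld2, 0.39 for Pdia6, 0.30 for Hsp90b1, 0.13 for Canx, whose call was lost when no filter on low counts was used, and 0.02 for Calr. Of the 7, 6 were called higher and Calr was not, and all share the fixed letters. Hspa5 had its match 65 to 47 bases before the start and Calr 162 to 144 bases before it. Of the 18 tested genes with a match, 10 were called higher, 2 lower and 6 neither, and the degradation genes Syvn1 (0.88) and Derl3 (0.83) were among the higher ones. A match of letters is a description and not a shown binding site.

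The whole 250-base window before Creld2, an ER folding factor, is printed as the example with a second gene on its other side: chr15:88819396-88819645, + strand, from RefSeq GRCm38.p6. Capitals mark the element, which reads on the opposite strand and also falls in the window of Alg12, a glycosylation enzyme transcribed the other way. Creld2 rose from 122 and 131 CPM to 180.3 and 175 CPM, and Alg12 by 0.89 on the log2 scale.
Creld2 window: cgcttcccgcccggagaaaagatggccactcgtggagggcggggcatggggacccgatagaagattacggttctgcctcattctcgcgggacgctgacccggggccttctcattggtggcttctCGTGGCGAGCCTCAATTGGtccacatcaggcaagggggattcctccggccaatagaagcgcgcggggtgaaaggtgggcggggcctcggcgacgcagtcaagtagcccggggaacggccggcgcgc

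A composite C/EBP-ATF letter pattern, TGATGNAAT, which ATF4 is known to use, was present on either strand before 246 of 27025 genes with a promoter in the table (0.91%) and before 46 of the 9652 tested ones (0.477%). Among genes called at least 2-fold higher it was found for 11 of 803 with a promoter (1.37%), and among those at least 2-fold lower for 2 of 806 (0.248%). In the list of ATF4 and CHOP targets it was found for 2 of 35 genes (5.71%). The shares are given without a test.

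Aminoacyl tRNA synthetases, which charge tRNAs and include ATF4 targets, rose in 13 of 20 members and fell in 4 (median 0.54). Wars, for tryptophan, rose 2.45-fold from 173 and 176 CPM to 432 and 421 CPM. Nars, for asparagine, rose 2.14-fold from 353 and 369 CPM to 764 and 780.3 CPM. In both, all thapsigargin values were above all vehicle values, and 81.4% of all tested genes had groups apart in either direction.

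Effector cytokines split, with the larger number falling: 5 of 19 rose and 12 fell, 11 of them at least 2-fold, for a median log2 change of -1.08. Ifng, the interferon of CD8 T cells at chr10:118441046-118445892 (GRCm38), was among the risers, from 4712 and 4874 CPM to 10396 and 10209 CPM (2.15-fold; log2 change 1.10 ± 0.031, SE; adjusted p = 6.1e-37, edgeR). Il2, the T cell growth factor, rose from 16.2 and 15.7 CPM to 31.2 and 29.5 CPM. Il21 rose 6.13-fold from 10.9 and 12.04 CPM to 66.9 and 73.8 CPM, and Il3, a growth factor of blood cell precursors, from 201 and 213 CPM to 639 and 629 CPM. Csf1, a growth factor of macrophages, was the other riser (2.46). The groups did not overlap for any of these genes, as for 81.4% of all tested genes.

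The cytokines that fell included inhibitory and type 2 members. Il10, an inhibitory cytokine, fell from 308 and 304 CPM to 43.8 and 44.9 CPM (log2 change -2.79). Il13, a type 2 cytokine, fell 11.6-fold from 90.2 and 91.6 CPM to 7.67 and 8.03 CPM. Tnf went from 117 and 111 CPM to 54.9 and 54.5 CPM, about as far below vehicle on the log2 scale (-1.06) as Ifng was above it. Csf2, which encodes GM-CSF, fell less, from 81.0 and 80.0 CPM to 59.6 and 63.8 CPM.

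Chemokine genes were split: 3 of 9 tested rose and 5 fell (median -0.25). Ccl3 and Ccl4, which attract other leukocytes, went from 1403 and 1446 CPM to 1683 and 1663 CPM and from 472 and 497 CPM to 693 and 673 CPM. Xcl1, which attracts cross-presenting dendritic cells, fell from 1109 and 1115 CPM to 913 and 906 CPM. The 2 of the 9 that fell at least 2-fold were at low levels. Ccl22 (-2.91), a ligand of CCR4, went from 1.75 and 1.36 CPM to 0.170 and 0.230 CPM. Cxcl10 (-3.86), an interferon-induced chemokine, went from 5.60 and 3.86 CPM to 0.0852 and 0.536 CPM.

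**Figure D3:**
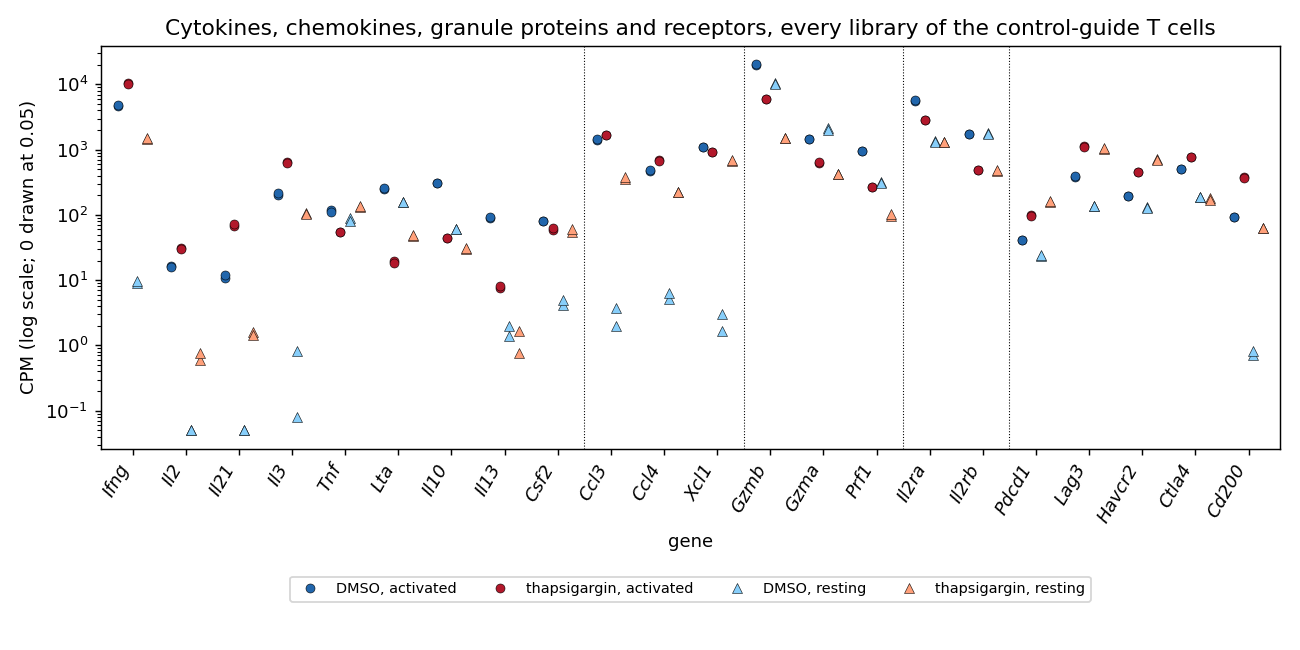
CPM (log axis) of 22 cytokine, chemokine, granule and receptor genes in every control T cell library; circles are activated cells, triangles resting cells, and colours mark vehicle and thapsigargin. In activated cells Ifng lay higher with thapsigargin (10396 and 10209 CPM against 4712 and 4874 CPM) and Gzmb lower (6004 and 6013 CPM against 19872 and 20390.3 CPM).

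The granule genes Gzmb, Prf1 and Gzma fell, while their list as a whole was split. Gzmb, the main granule protease, fell 3.35-fold from 19872 and 20390.3 CPM to 6004 and 6013 CPM (log2 change -1.74 ± 0.03, SE; adjusted p = 5e-47, edgeR). Prf1, the pore-forming perforin, fell 3.51-fold from 947 and 950.3 CPM to 269 and 271 CPM, and Gzma from 1434 and 1482 CPM to 626 and 642 CPM. Among the 22 tested genes of granzymes and granule release as a whole, 11 fell, 7 of them at least 2-fold, and 9 rose (median -0.14). Granzyme genes lie among close copies, so their counts may be partial.

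Receptors of the IL-2 family did not move as 1 group. Il2ra, the alpha chain CD25 that activation induces, went from 5604 and 5745 CPM to 2836 and 2873 CPM. Il2rb, the chain shared by IL-2 and IL-15, fell from 1736 and 1759 CPM to 479.9 and 489 CPM (log2 change -1.85). Il7r, the survival receptor for IL-7, rose 1.93-fold from 158 and 156 CPM to 297 and 309 CPM. Over 22 interleukin receptor genes 9 rose and 10 fell (median -0.08).

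Inhibitory receptors mostly rose, 11 of 16 with 4 lower, at a median log2 change of 0.77. Pdcd1, which encodes PD-1, rose 2.4-fold from 40.8 and 40.7 CPM to 98.5 and 96.5 CPM. Lag3 went from 379 and 389 CPM to 1146 and 1087 CPM and Havcr2, which encodes TIM-3, from 193 and 194 CPM to 457 and 454 CPM. Ctla4, which competes for CD80 and CD86, rose less, from 501 and 499 CPM to 772 and 783 CPM. Cd200 (2.01) and Btla (1.89) had larger log2 changes, and Cd244a, Cd200r1, Entpd1 and Cd274 were the members that fell.

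Costimulatory genes rose in 13 of 24 members and fell in 7 (median 0.31). Cd40lg, the CD40 ligand that licenses antigen-presenting cells, rose 5.42-fold from 8.92 and 8.63 CPM to 47.8 and 47.4 CPM, and Slamf6 6.15-fold from 1.22 and 0.909 CPM to 6.99 and 6.12 CPM. Tnfrsf9, which encodes 4-1BB, differed by -0.10 on the log2 scale, a call that was lost without the first thapsigargin library.

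Signalling genes of the T cell receptor rose in 18 of 30 members and fell in 10 (median 0.47). Ptpn22, a phosphatase that restrains the receptor, rose 3.07-fold from 221 and 232 CPM to 693 and 699 CPM, and Fyn, a kinase of the SRC family, from 118 and 113 CPM to 278 and 275 CPM. The adaptors Lat and Grap2 fell, Lat from 333 and 333 CPM to 145 and 133 CPM and Grap2 from 162 and 162 CPM to 37.0 and 36.8 CPM. Cblb, a ubiquitin ligase linked to anergy, rose 2.32-fold to 612 and 627 CPM, and its list rose in 10 of 17 members and fell in 5 (median 0.14).

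Immediate early factors mostly fell: 12 of 19 EGR and AP-1 genes were lower and 6 higher (median -0.38). Egr3 fell 4.2-fold from 36.3 and 35.4 CPM to 9.12 and 7.96 CPM, while Egr2 went up from 44.0 and 39.5 CPM to 58.4 and 61.4 CPM. Junb fell from 631 and 559.6 CPM to 291 and 211 CPM, with more spread between libraries than most genes here. Nr4a3, an orphan receptor induced by calcium signals, rose from 331 and 312 CPM to 1164 and 1128 CPM (log2 change 1.83), but Nr4a1 changed by 0.22. NR4A and exhaustion-linked factors together rose in 9 of 15 members and fell in 5 (median 0.19).

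Homing receptors fell in 15 of 24 members and rose in 5 (median -0.72). Ccr4, a chemokine receptor, fell 10.6-fold from 228 and 223 CPM to 19.01 and 23.4 CPM. S1pr1, which directs exit from lymph nodes, changed by -2.42 on the log2 scale. Both thapsigargin libraries were below both vehicle libraries for each, where 81.4% of all tested genes had groups apart in either direction.

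Among 32 factors of effector and memory states 16 rose and 13 fell (median 0.11). Id2, which opposes E proteins in effector cells, fell 4.18-fold from 439.8 and 451 CPM to 107 and 106 CPM. Eomes fell from 86.9 and 89.1 CPM to 28.9 and 25.9 CPM and Lef1 from 63.2 and 68.4 CPM to 13.4 and 14.2 CPM. Tbx21, which encodes T-bet, went the other way, from 50.7 and 49.1 CPM to 83.1 and 75.4 CPM. Tcf7, which encodes TCF-1, a factor of memory-like cells, fell by 0.46 on the log2 scale.

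Mitosis and DNA replication genes fell, with no member of either list called higher. All 30 mitosis genes were lower, 24 of them at least 2-fold (median -1.53), and 41 of 42 genes of DNA replication and nucleotide supply were lower and the other not called (median -1.12). Mki67, the proliferation marker, went from 475 and 433 CPM to 111 and 123 CPM. Rrm2, a subunit of ribonucleotide reductase, fell 5.31-fold from 223 and 233 CPM to 41.1 and 44.8 CPM. Of 20 G1 cyclins and inhibitors 15 fell and 5 rose (median -0.67): Ccnd3, cyclin D3, went from 281 and 278 CPM to 74.1 and 72.3 CPM, and Cdkn2b, a CDK4 inhibitor, from 16.03 and 15.1 CPM to 54.6 and 46.9 CPM.

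Growth metabolism fell with it. MYC and ribosome biogenesis genes were lower in 28 of 34 members and higher in 3 (median -0.58), and Myc went from 569 and 556 CPM to 346 and 323 CPM. Glycolysis and pentose phosphate genes were lower in 23 of 28 and higher in 3 (median -0.57), with Slc2a3, a glucose transporter, at 388 and 395 CPM with vehicle and 196 and 196 CPM with thapsigargin. The strongest of these lists was sterol and fatty acid synthesis, the targets of SREBP, with 31 of 32 lower, 24 at least 2-fold, and a median of -1.19.

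Scd1, a fatty acid desaturase, fell 11-fold from 263 and 279 CPM to 24.0 and 25.3 CPM. Hmgcs1, of the cholesterol route, fell from 677 and 705 CPM to 173 and 172 CPM. Insig2, which retains the SREBP complex in the ER, was the member that rose, from 24.8 and 29.2 CPM to 32.5 and 32.3 CPM, and that call was lost without the first vehicle library.

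**Figure D4:**
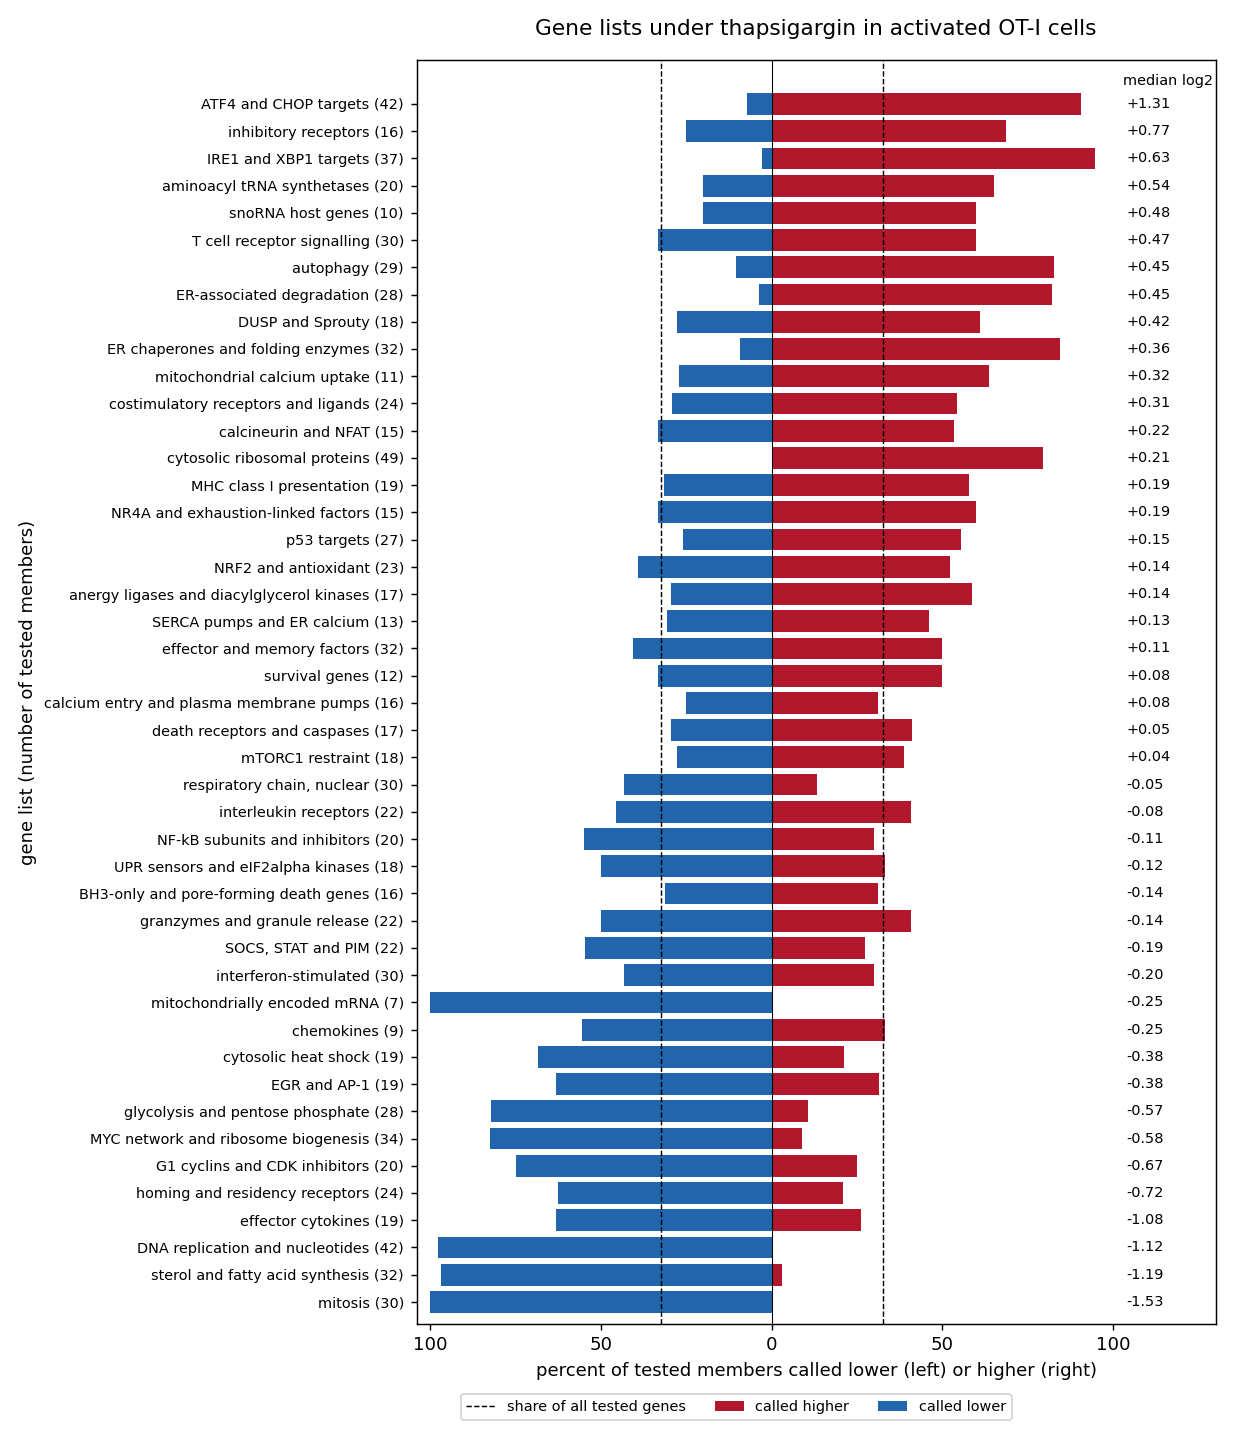
For each of 45 gene lists, bars give the percentage of tested members called higher (to the right) and lower (to the left) with thapsigargin in activated cells, with the median log2 change printed at the right edge. Dashed lines mark the shares over all genes, 32.6% higher and 32.4% lower; ATF4 and CHOP targets reach furthest up and mitosis and sterol synthesis furthest down in median.

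Death and survival genes had no shared direction. Of 16 BH3-only and pore-forming genes 5 rose, 5 fell and 6 were not called (median -0.14). These shares were near those over all tested genes, 32.6% higher and 32.4% lower. Bcl2l11, which encodes BIM, rose 2.44-fold from 23.3 and 23.9 CPM to 57.9 and 57.5 CPM, and Bbc3, which encodes PUMA, 2.45-fold from 12.7 and 9.62 CPM to 28.5 and 26.2 CPM. Survival genes rose in 6 of 12 members and fell in 4 (median 0.08): Bcl2l1, which encodes BCL-XL, went from 306 and 308 CPM to 135 and 132 CPM, and Mcl1 had 264 and 264 CPM with vehicle and 254 and 253 CPM with thapsigargin (adjusted p = 0.17, edgeR).

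Cytosolic heat shock genes fell in 13 of 19 members and rose in 4 (median -0.38), the reverse of the ER chaperones. Hsp90aa1, an inducible cytosolic HSP90, went from 1004 and 1063 CPM to 496 and 504 CPM. Hspa4l, a nucleotide exchange partner of HSP70, was the largest riser of the list, 2.59-fold to 176 and 179 CPM.

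Autophagy genes rose in 24 of 29 members and fell in 3 (median 0.45). Sqstm1, the cargo receptor p62, rose from 176 and 179 CPM to 930.3 and 916 CPM (5.2-fold), and Atg13, of the initiating kinase complex, 2.49-fold from 41.8 and 43.2 CPM to 108 and 103 CPM. Cytosolic ribosomal protein genes rose by small amounts in 39 of 49 members with none lower (median 0.21), the largest in Rpl34, from 315 and 311 CPM to 498 and 486 CPM. The 7 tested mRNAs of the mitochondrial genome all fell (median -0.25), and mt-Nd1 went from 3044 and 3031 CPM to 2105 and 2293 CPM. The other 6 of the 13 listed, among them mt-Co2 and mt-Atp6, had 0 counts in all 4 activated libraries. This class was therefore only partly measured.

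The response of activated cells was set against that of resting control cells, in which 4574 genes (34.1%) were called higher and 4726 (35.2%) lower, 69.2% in all, of which 1474 (11%) and 1751 (13%) by at least 2-fold. The difference of the 2 effects passed edgeR's test for 6971 genes (51.9%), 3588 of them (26.7%) with the more positive change in activated cells and 3383 (25.2%) with the more negative one. Which direction had more calls turned with the scaling, with 3428 positive and 3557 negative under DESeq2's size factors. The difference was at least 2-fold for 950 (7.07%) and 865 (6.44%). Of the 1113 genes at least 2-fold higher in activated cells, 829 were also called higher in resting cells, 72 were called lower and 212 were not called. Of the 1193 at least 2-fold lower, 944 were called lower in resting cells, 49 higher and 200 neither. Opposite calls with the difference of effects also called were made for 1105 genes, with gene models, immunoglobulins and pseudogenes left out of this count. Only 50 of the 1105 changed at least 2-fold in both states.

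**Figure D5:**
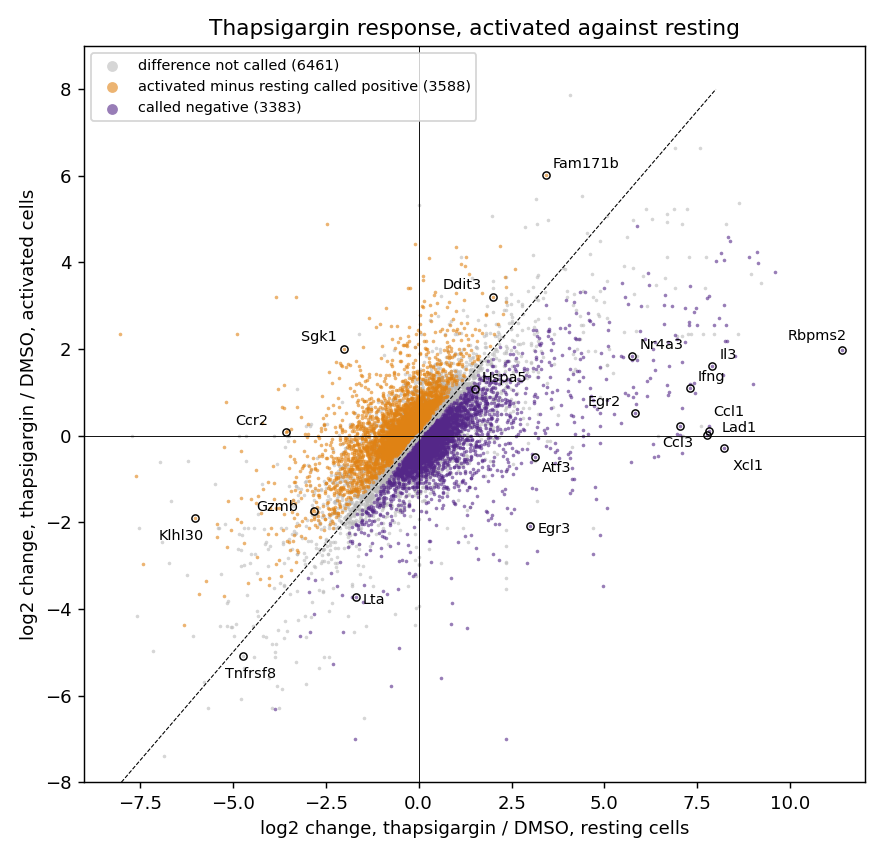
Log2 change with thapsigargin in resting cells (horizontal) against that in activated cells (vertical) for each gene tested; the dashed line marks equal change. Colours mark the 3588 genes with a more positive and the 3383 with a more negative change in activated cells and the 6461 whose difference was not called; cytokine and chemokine genes such as Ifng and Xcl1 lie far to the right of the line.

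Several cytokine and chemokine genes, low in resting vehicle cells and high in activated ones, were among the genes with the largest negative differences of effect. In resting cells Ifng went from 9.01 and 9.79 CPM to 1481 and 1502 CPM, Xcl1 from a mean of 2.37 CPM to 689 CPM and Ccl3 from a mean of 2.85 CPM to 370 CPM, so that even with thapsigargin they stayed below activated vehicle cells. For chemokines the difference was negative in 7 of 9 members and positive in none, and for effector cytokines negative in 15 of 19 and positive in 1. Nr4a1 had 2.73 and 3.79 CPM with vehicle and 93.8 and 98.7 CPM with thapsigargin at rest, and Egr3 2.41 and 3.14 CPM and 21.8 and 22.3 CPM, a rise in both, where activated cells had a change of 0.22 in Nr4a1 and a fall in Egr3. Atf3 likewise went from 5.07 and 6.46 CPM to 48.6 and 51.6 CPM at rest.

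Stress lists rose in both states. ATF4 and CHOP targets had a median log2 change of 1.58 at rest against 1.31 in activated cells, and the difference was negative in 20 of 42 members and positive in 11. Ddit3 was among the positive ones, with 18.98 and 16.7 CPM and then 69.0 and 74.4 CPM at rest. ER chaperones had medians of 0.47 at rest and 0.36 in activated cells, and IRE1 and XBP1 targets 0.64 and 0.63. The difference was called negative in 15 of 32 chaperones and positive in 6, and negative in 16 of 37 IRE1 and XBP1 targets and positive in 5. Mitosis (-1.53 in both states), DNA replication (-1.10 and -1.12) and sterol synthesis (-1.19 in both) had nearly the same medians; their differences were called positive in 7 of 30, 10 of 42 and 12 of 32 members and negative in 8, 11 and 9.

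Other lists differed by state. MYC and ribosome biogenesis genes had a median of 0.16 at rest and -0.58 in activated cells, and the difference was negative in 29 of 34 members and positive in 2. Cytosolic ribosomal protein genes had a median of -0.06 at rest and 0.21 in activated cells, with a positive difference in 43 of 49 and a negative one in none. Homing receptors fell further at rest (median -1.82), with a positive difference in 18 of 24. Sgk1, a salt- and growth-regulated kinase, crossed between the states: it rose from 12.01 and 12.1 CPM to 50.2 and 47.2 CPM in activated cells and fell from 62.5 and 61.2 CPM to 16.02 and 14.9 CPM at rest.

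Against control melanoma cells given the same drug, dose and time, tested over 14824 genes of all 20 libraries, the effect differed for 6434 genes (43.4%), 3229 (21.8%) more positive in activated T cells and 3205 (21.6%) more negative, by at least 2-fold for 997 (6.73%) and 939 (6.33%). ER chaperones had a more negative effect in T cells for 26 of 33 members tested there and a more positive one for 3 (medians 0.36 in the T cell fit and 1.52 in melanoma). Hspa5 had a log2 change of 3.34 in melanoma, and the difference was -2.23. IRE1 and XBP1 targets had a more negative effect in T cells for 35 of 37 members and a more positive one for none, and ATF4 and CHOP targets for 27 of 44 with 8 more positive. Sterol and fatty acid synthesis had a median of 0.14 in melanoma, and the effect was more negative in T cells for 25 of 32 members and more positive for 2. The cell types also differ in origin and in culture conditions, from which the drug response cannot be told apart.

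Activated cells with the Atp2a2 guide were compared with the same 2 vehicle libraries, so values are given side by side only. Atp2a2 had 434 and 436 CPM there against 664 and 687 CPM in controls. With the guide 2357 genes (17.5%) were called higher and 2629 (19.6%) lower, of which 350 (2.61%) and 64 (0.476%) were at least 2-fold. DESeq2 called fewer, 1477 higher and 1679 lower. ATF4 and CHOP targets were higher in 36 of 42 members (median 0.53, against 1.31 with the drug), ER chaperones in 16 of 32 (0.14 against 0.36), and mitosis genes lower in 29 of 30 (-0.56 against -1.53). Ifng had 7386 and 7815 CPM with the guide, above both vehicle libraries and below both thapsigargin libraries. Prf1, at 1573 and 1609 CPM with the guide (log2 change 0.75), lay on the other side of vehicle from thapsigargin, and Gzmb had 18945 and 19808 CPM (log2 change -0.06; adjusted p = 0.13, edgeR).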

How the data were processed

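Total RNA was sequenced from 20 mouse libraries, and the deposited values are raw counts per Ensembl gene. Per the submitters' processing notes, the authors named STAR 2.6.0c, HTSeq and the build GRCm38/mm10; the strand setting, annotation release and filters are not given in the sources used here, so overlapping genes and close copies may share or lose reads. The 598 rows with no gene name, 0.0759% of the counts, stayed in the library sizes and the fits under their Ensembl identifiers. They were left out only of the ranks of named genes. Samples were grouped by title.

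The 12 T cell libraries were fitted together in edgeR 4.0.16 (limma 3.58.1, R 4.3.3; trimmed mean of M values scaling, filterByExpr, robust quasi-likelihood test, Benjamini-Hochberg adjustment over 13432 genes, threshold 0.05), leaving 6 residual degrees of freedom, and all 20 libraries (14824 genes) for the difference from melanoma. CPM use the scaled library sizes, with factors from 0.972 to 1.063, except the sums over marker lists, which use unscaled totals. Errors of log2 changes are standard errors derived from the test, as the absolute log2 change over the square root of its F statistic. Each group has n = 2. A fold against a group with at most 3 counts is not printed as a measured fold. Replicate pairs differed by more than counting noise (chi-square per degree of freedom from 1.4 to 2.92), so none was taken as a library deposited more than once.

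The genes and the 52 lists (7 of them marker lists) were chosen with earlier results of these data known, so their counts describe and do not test them. Named genes are the 12 largest called rises and 12 largest called falls whose groups did not overlap and whose higher group reached 10 CPM, the 4 called genes of each list that moved furthest, the 8 largest differences of effect in each direction, a set of textbook genes and the SERCA genes; few exceptions are named where 5 or fewer members went against their list. A few genes are not reported here. Symbols of gene models, immunoglobulins and pseudogenes were left out of these ranks. Promoter windows came from RefSeq GRCm38.p6, matched by symbol, and other letter patterns searched in them are not shown. The procedures were tested on simulated data. Alternatives were DESeq2 1.42.0, its size factors in edgeR, a filter of 5 CPM, no filter, fitting only the compared groups, a replicate block, leaving out each library and leaving out the libraries labelled resting with the Atp2a2 guide. Intervals of sampling are not given, since the counts carry no molecular identifiers.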

Additional observations from a re-analysis of the deposited data

Results flagged for a closer look

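The following values are differences between 2 log2 changes with thapsigargin, each past the threshold in edgeR's test of the difference itself, with 2 libraries in each of the 4 groups behind it. No cause was tested. Where a gene had at most 3 counts in a group, as Rbpms2, Slc1a2 and Il2 did in resting vehicle cells, the fitted value depends on the prior count and is no bound.

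Against resting cells, the activated cells had a more positive effect on Klhl30 (4.12), Sgk1 (4.01), Sntb1 (3.72), Ret (3.66), Ccr2 (3.65), Cd1d1 (3.64), Dtx1 (3.61) and Ahnak2 (3.60). Most of these fell at rest from a level that activated vehicle cells did not have: Ccr2, a chemokine receptor, went from a mean of 739.8 CPM to 62.1 CPM at rest and from 88.9 CPM to 93.7 CPM in activated cells. Cd1d1, a lipid-presenting molecule, rose in activated cells from 1.17 CPM to 13.02 CPM and had 4.59 CPM and 3.88 CPM at rest. Smaller positive differences were found for Atp2a3 (1.76), Bbc3 (1.73), Ddit3 (1.21), Bcl2l11 (1.13) and Gzmb (1.06). Gzmb fell in both states, at rest from a mean of 10469 CPM to 1499.5 CPM. Bcl2l11 was already at 193 CPM in resting vehicle cells against 23.6 CPM in activated ones.

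The effect was more negative in activated than in resting cells for Rbpms2 (-9.43), Xcl1 (-8.50), Lad1 (-7.75), Ccl1 (-7.70), Slc1a2 (-7.18), Ccl3 (-6.81), Il3 (-6.29) and Ifng (-6.21). Lad1 had a mean of 95.5 CPM with vehicle and 96.3 CPM with thapsigargin in activated cells, and 0.086 CPM and 20.9 CPM at rest. The same held for the cytokine genes Il2 (-5.22), Ccl4 (-4.78), Csf2 (-4.06) and Tnf (-1.71), the immediate early and calcium-linked genes Egr2 (-5.31), Nr4a1 (-4.68), Nr4a3 (-3.92), Atf3 (-3.63), Irf4 (-2.58) and Rcan1 (-1.48), and the receptors Pdcd1 (-1.49), Lag3 (-1.37), Havcr2 (-1.22) and Tnfrsf9 (-1.05). Tnf crossed between the states, from a mean of 114 CPM to 54.7 CPM in activated cells and from 86.0 CPM to 135 CPM at rest. Nr4a3 reached 1146 CPM in activated and 1267 CPM in resting cells with the drug, from 322 CPM and 23.5 CPM.

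Against melanoma, the effect in activated T cells was more positive for Gjc3 (7.10), Spint1 (6.57), Angptl2 (6.26), Trbc2 (6.20), Fam171b (6.12), Fbln5 (5.85), Cdk15 (5.83) and Hpgds (5.69). It was more negative for Atp2a3 (-9.56), Sorl1 (-8.29), Cftr (-7.43), Myo1f (-6.96), Esm1 (-6.82), Podnl1 (-6.57), Cd74 (-6.46) and Tgm2 (-6.16). Many of these are hardly expressed in 1 of the cell types: Trbc2, a T cell receptor constant gene, had means of 0.342 CPM and 0 CPM in melanoma. Activated T cells hardly expressed Cftr, whose only count there was 1, in a vehicle library. The value of -7.43 therefore shows no fall of Cftr in these cells. Gjc3, Cdk15 and Hpgds were not detected in vehicle T cells and reached at most 9 counts in any drug-treated library. Their fitted values likewise depend on the prior count. Atp2a3, the SERCA3 pump gene, went from a mean of 0.035 CPM to 29.2 CPM in melanoma on the scale of all 20 libraries, and had 82.0 CPM and 76.4 CPM in activated T cells.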

How the results depend on the processing

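No called gene value changed sign under any alternative run. Of the counts over all genes, 244 stayed within 1.5 times the value reported and 8 did not; of the list counts 1117 and 27; of the values of single genes 4823 kept their call, 64 lost it and 17 gained it. The filter of 5 CPM, which tests fewer genes, gave 974 genes at least 2-fold higher in resting cells and 565 with an at least 2-fold more negative effect in activated than in resting cells. For the Atp2a2 guide, DESeq2 called 1477 higher and 1679 lower (221 and 29 at least 2-fold), and the 5 CPM filter left 204 and 20 at least 2-fold; the cause of the DESeq2 change was not tested. For thapsigargin in activated cells DESeq2 called 3466 higher and 3824 lower, its size factors in edgeR 4227 and 4498, and no filter 3663 and 4914. For the difference from resting cells, the larger number of calls turned from positive to negative under DESeq2 (2556 and 2686), its size factors (3428 and 3557), no filter (2871 and 3838) and without either resting thapsigargin library (2844 and 3439, 2920 and 3566). The replicate numbers did not pair the libraries: the deviations of same-numbered libraries correlated at -0.021 between the 2 groups, and from -0.109 to 0.109 over T cell groups. With the replicate block 4363 genes were higher and 4334 lower. Leaving out 1 library, which leaves a lone library assumed to vary like the other groups, gave 3898 to 4164 higher and 3858 to 4084 lower (1108 to 1148 and 1132 to 1190 at least 2-fold). The ranges were 4137 to 4398 and 4262 to 4498 (1434 to 1549 and 1722 to 1753) in resting cells, 2844 to 3409 and 3057 to 3566 (814 to 932 and 774 to 940) for the difference from resting cells, 2966 to 3201 and 2694 to 2995 (945 to 1047 and 801 to 909) for that from melanoma, and 1786 to 2147 and 1889 to 2401 (306 to 377 and 60 to 71) for the guide. The calls of Atp2a3, Ccl1 and Insig2 in activated cells rested on small changes and were lost under DESeq2 and without 1 library. Depth limits genes of few counts.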

Other observations

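Genes outside the comparisons above also formed groups with mixed or shared direction, given here as values for activated cells with the log2 change after the 2 vehicle and 2 thapsigargin levels; the shares over all genes were 32.6% higher and 32.4% lower. Interferon-stimulated genes fell in 13 of 30 tested members and rose in 9 (median -0.20), with no single direction although Ifng RNA rose. Mx1, an antiviral GTPase, fell 4.81-fold from 18.9 and 15.7 CPM to 3.92 and 3.29 CPM, and Oas3, a sensor enzyme of double-stranded RNA, 3.21-fold from 87.0 and 79.9 CPM to 27.1 and 24.9 CPM. MHC class I presentation rose in 11 of 19 and fell in 6 (median 0.19), and Tapbp, which encodes tapasin, fell from 248 and 245 CPM to 117 and 109 CPM. NF-kB subunits and inhibitors fell in 11 of 20 and rose in 6 (median -0.11), led by Bcl3 (75.0 and 75.6 CPM to 25.3 and 21.4 CPM).

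Feedback genes of kinase signalling were split by family. DUSP and Sprouty genes rose in 11 of 18 and fell in 5 (median 0.42): Spry1, an inhibitor of MAPK signalling, rose 7.77-fold from 18.6 and 15.7 CPM to 138 and 128 CPM, and Dusp5 fell from 272 and 269.9 CPM to 127 and 121 CPM. SOCS, STAT and PIM genes fell in 12 of 22 and rose in 6 (median -0.19), with Pim2, a survival kinase, at 206 and 215 CPM and then 67.4 and 67.1 CPM. Both Socs3 (-1.01) and Socs1 (-1.05), brakes of cytokine receptors, were lower.

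Stress routes other than the unfolded protein response held single large movers. Hmox1, heme oxygenase 1, rose 2.94-fold from 27.9 and 29.1 CPM to 85.8 and 81.9 CPM, while NRF2-linked genes rose in 12 of 23 and fell in 9 (median 0.14). Of 27 p53 targets 15 rose and 7 fell (median 0.15): Trp53inp1 rose 3.47-fold from 86.2 and 85.7 CPM to 295 and 301 CPM, and Gadd45g fell 11.1-fold from 129 and 123 CPM to 12.4 and 10.4 CPM. Death receptors and caspases rose in 7 of 17 and fell in 5 (median 0.05), with Casp4, an inflammatory caspase, at 17.5 and 20.7 CPM and then 77.4 and 79.0 CPM. Genes that restrain mTORC1 rose in 7 of 18 and fell in 5 (median 0.04), among them Sesn2 (104 and 109 CPM to 229 and 229 CPM).

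Host genes of small nucleolar RNAs, whose spliced transcripts are known to decay when translated, rose in 6 of 10 and fell in 2 (median 0.48), against a median of 1.31 in resting cells, and the difference was negative in 9 of 10. Snhg12 went from 39.2 and 40.2 CPM to 83.4 and 80.8 CPM in activated cells and from 15.04 and 15.4 CPM to 199 and 201 CPM in resting ones. Nuclear genes of the respiratory chain fell in 13 of 30 and rose in 4 (median -0.05).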
